A study of Rattus norvegicus with 4 samples.

Results

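Glul, Ckb, Cnp and Mag, 4 genes best known from glial cells of the nervous system, were followed probe set by probe set over the 4 arrays of the study. The members were every probe set whose gene symbol in the probe table was exactly one of these names, which gave 4 of the 720 genes named by 1 probe set or more and 10 of the 1263 probe sets other than controls, 4 for Glul, 2 for Ckb, 1 for Cnp and 3 for Mag. The rat samples carried the source label brain, adrenal medulla, and total RNA was hybridised to 1 array for each of 4 groups, digested day 7, undigested day 7, digested day 1 and undigested day 1. What was digested, what the days were counted from, and the strain, sex and age of the rats are not given in the sources used here, and every group had 1 array, so no value has a replicate error and no difference was tested. The genes were chosen by name, on their known roles and with the signals of these same arrays in view, above all the lower day 7 signals of Glul and Ckb, so all values are a description.

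Glul codes for glutamine synthetase, which joins ammonia to glutamate; in brain it is found mainly in astrocytes and closes the glutamate-glutamine cycle between glia and nerve terminals. Ckb codes for the brain form of creatine kinase, which moves phosphate between creatine and ATP and is found in glia as well as in neurons. Cnp, a cyclic nucleotide phosphodiesterase of uncompacted myelin, and Mag, a sialic acid-binding adhesion protein on the myelin membrane that faces the axon, mark oligodendrocytes and, outside the brain, Schwann cells.

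Glul and Ckb read lower on both day 7 arrays than on both day 1 arrays. By the brightest probe set of each gene, Glul was 2.06-fold lower at day 7 in digested samples and 2.62-fold lower in undigested samples, and Ckb was 1.87-fold and 2.97-fold lower in the same pairs. At day 7 these probe sets read higher in the digested than in the undigested sample, Ckb by 1.82-fold and Glul by 1.34-fold. The Glul difference was of a common size in that pair, and the dimmest Glul probe set was 2.55-fold lower in the digested sample. The myelin genes did not share the pattern of Glul and Ckb. Cnp read highest in the undigested day 7 sample, and the probe sets of Mag went in different directions.

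Signals below are deposited intensities scaled so that the arrays share a median, in arbitrary units, and values under a floor of 51.8, the 20th percentile of all scaled values, were set to that floor before log2 was taken. Folds are ratios of scaled signals, and a difference was counted when it was at least 2-fold either way. The median signal before scaling lay between 241.8 and 284.1 on the 4 arrays, and the number of arrays limits the precision. Of the 1263 probe sets, 632 passed a filter on dim signal (a mean of at least 229), among them 8 of the 10 members. The beta-actin 3′ over 5′ signal ratio, which goes up as labelled RNA gets shorter, was 1.35 and 2.66 for the digested and undigested day 7 samples, against 1.48 and 1.42 for the digested and undigested day 1 samples. The same ratio of GAPDH was 1.10 and 1.18 at day 7, digested and undigested, against 1.04 and 1.01 at day 1, digested and undigested, and that of hexokinase 1.05 and 1.4 at day 7 against 1.2 and 1.31 at day 1, so the undigested day 7 array was highest in all 3 but stood apart from the others by beta-actin alone. The hybridisation controls, 9 probe sets, were low on the digested day 7 array, with a median log2 of -1.32 against the mean of the other arrays, compared with 0.34 to 0.48 for the others. In these bulk samples fewer cells of a type and less RNA per cell cannot be told apart.

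**Figure D1:**
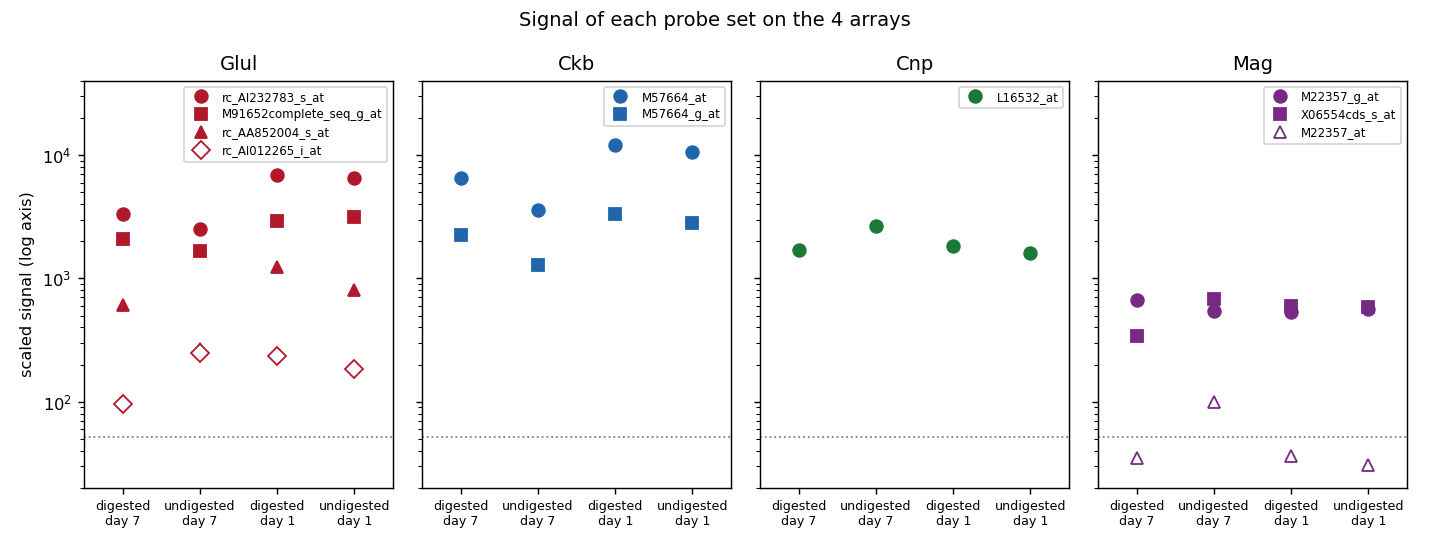
Scaled signal (log axis) of the 10 probe sets of Glul, Ckb, Cnp and Mag on the 4 arrays, 1 point per array. Open symbols are the 2 probe sets under the filter on dim signal, and the dotted line is the floor of 51.8. The 3 brighter Glul probe sets and both Ckb probe sets have both day 7 points below both day 1 points.

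The brightest Glul probe set, rc_AI232783_s_at, had scaled signals of 3356 and 2499 in the digested and undigested day 7 samples, against 6904 and 6550 in the digested and undigested day 1 samples. The days did not overlap, and the higher day 7 value lay a log2 of 0.97 below the lower day 1 value. Its log2 difference between the days was -1.04 in digested samples and -1.39 in undigested samples, where the median over the 632 analysed probe sets was 0.04 and 0.17. In the digested pair 28 of the 632 probe sets, this one included, lay at least as far down, and in the undigested pair 20 did.

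A probe set named for the complete Glul sequence, M91652complete_seq_g_at, had 2071 and 1667 in the digested and undigested day 7 samples, against 2950 and 3153 in the digested and undigested day 1 samples. The direction was the same, but the size stayed under 2-fold in both pairs, at log2 differences of -0.51 and -0.92, although the undigested pair came to 2.22-fold in the values as deposited. A dimmer one, rc_AA852004_s_at, had 603.6 and 268.0 at day 7, digested and undigested, against 1228 and 798.6 at day 1, digested and undigested, with log2 differences between the days of -1.02 in digested samples and -1.58 in undigested samples. In all 3 of these probe sets the undigested pair gave the larger difference. The gap between the smallest and the largest of their log2 differences was 0.53 in digested and 0.66 in undigested samples, beside a pooled SD between probe sets of a gene of 0.41 and 0.52 over 125 genes. A gap between extremes and an SD are unlike measures.

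The last Glul probe set, rc_AI012265_i_at, did not share the pattern. It read 96.49 in the digested day 7 sample and 245.8 in the undigested day 7 sample, against 235.5 and 182.6 in the digested and undigested day 1 samples. The single low value was that of the digested day 7 array, the one with the low hybridisation controls, whose part in it was not tested. It was therefore 2.44-fold lower at day 7 in digested samples and 1.35-fold higher in undigested samples. This probe set lies under the filter on dim signal, and in the array maker's naming the suffix i marks a set with fewer probes than usual.

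The brighter Ckb probe set, M57664_at, had scaled signals of 6542 and 3590 in the digested and undigested day 7 samples, against 12211 and 10675 in the digested and undigested day 1 samples. The undigested day 7 sample stood lowest and the digested one lay between it and the day 1 pair. The log2 difference between the days was -0.90 in digested and -1.57 in undigested samples, and 41 and 17 of the 632 analysed probe sets lay at least as far down. The companion M57664_g_at, drawn from the same sequence record and so no independent reading, had 2262 and 1290 at day 7, digested and undigested, against 3341 and 2834 at day 1, digested and undigested. Its order over the arrays was the same, with log2 differences of -0.56 and -1.14, smaller by 0.34 and 0.44 than those of the brighter probe set.

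Over the analysed set, 4.75% of probe sets were at least 2-fold lower at day 7 in digested samples and 6.01% in undigested samples. Of the 8 members in that set, 2 were at least 2-fold lower in digested samples, both of Glul, and 4 in undigested samples, 2 of Glul and 2 of Ckb; outside it, the dim rc_AI012265_i_at also was in digested samples. No member was 2-fold higher in either pair (3.32% and 7.28% of the analysed set were). Both day 7 arrays lay below both day 1 arrays for 5 of the 8 members, 3 of Glul and 2 of Ckb, and for 18.2% of the analysed set. At least 2-fold lower in both digestion states was reached by 0.949% of the analysed set, or 6 probe sets, of which rc_AI232783_s_at and rc_AA852004_s_at of Glul were 2. Both lay close to the threshold in digested samples. The first came to 2.0-fold there in the values as deposited. The second fell short of the threshold in the values as deposited (log2 -0.99), after quantile normalisation (-0.95) and with an offset of 50 in place of the floor (-0.97). Nothing is read from these shares, since the genes were chosen with these differences known.

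The beta-actin ratio of 2.66 belongs to the undigested day 7 array, which gave the lowest signal of the 3 brighter Glul and both Ckb probe sets. Without that array, in the digested pair with ratios of 1.35 and 1.48, the log2 differences were -1.04 for the brightest Glul and -0.90 for the brighter Ckb probe set. The undigested pair gave -1.39 and -1.57 for the same probe sets. The digested day 7 array is the one with the low hybridisation controls, and the part of RNA length or of those controls in the Glul and Ckb values was not tested.

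The promoter windows of the 2 genes that read lower at day 7 are shown so that their sequence can be set side by side. They are RefSeq sequences of the rat build GRCr8, from 250 bases before to 50 after the annotated start, 5′ to 3′ along the gene, and all 4 genes had an entry. Glul has 2 annotated starts, chr13:68519250-68519549 and chr13:68575816-68576115 on the plus strand, and Ckb 1, chr6:136553415-136553714 on the minus strand. Capitals mark matches on either strand to the TATA box (TATAAA), the CCAAT box (CCAAT) and the GC box (GGGCGG).
Glul, first start: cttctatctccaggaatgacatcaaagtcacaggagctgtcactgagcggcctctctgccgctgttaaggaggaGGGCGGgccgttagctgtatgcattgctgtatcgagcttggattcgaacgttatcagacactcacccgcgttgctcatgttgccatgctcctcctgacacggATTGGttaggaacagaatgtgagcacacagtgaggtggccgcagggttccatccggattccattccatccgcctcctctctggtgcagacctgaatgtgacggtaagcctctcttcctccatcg
Glul, other start: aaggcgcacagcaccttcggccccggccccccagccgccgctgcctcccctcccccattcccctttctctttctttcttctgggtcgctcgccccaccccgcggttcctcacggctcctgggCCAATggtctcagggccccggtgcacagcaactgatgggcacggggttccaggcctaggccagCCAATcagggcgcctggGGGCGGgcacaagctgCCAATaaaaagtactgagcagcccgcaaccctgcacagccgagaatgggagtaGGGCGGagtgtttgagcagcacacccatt
Ckb: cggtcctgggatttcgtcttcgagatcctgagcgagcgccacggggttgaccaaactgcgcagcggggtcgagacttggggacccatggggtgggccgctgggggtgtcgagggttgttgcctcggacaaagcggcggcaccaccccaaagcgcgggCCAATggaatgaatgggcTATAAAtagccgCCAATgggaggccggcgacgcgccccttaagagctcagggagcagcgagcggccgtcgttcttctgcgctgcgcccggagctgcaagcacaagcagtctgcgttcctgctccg

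The Ckb window held 2 CCAAT boxes, beginning at bases -93 and -63 from the start, on either side of a TATA box at -75. The window of the other Glul start held 3 CCAAT boxes, at -128, -65 and -32, and 2 GC boxes, at -48 and 22, with no match to TATAAA. That of the first Glul start held 1 CCAAT box, read on the minus strand, and 1 GC box. Of 33469 promoter windows in the table, 37.5% held a CCAAT box, 14.2% a TATA box and 33.1% a GC box on either strand. An E box (CANNTG), present in 72.1% of windows, was matched 1 time at the other Glul start and not in the Ckb window or that of the first Glul start, and the full glucocorticoid response element, present in 0.015% of windows, was matched in none of the windows of the 4 genes. The motifs did not overlap each other. The Cnp window held 3 GC boxes and the Mag window 0, and neither held a CCAAT or TATA box. These are matches of letters in the windows and no measure of binding.

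Digestion was the second comparison. At day 7 the brighter Ckb probe set read 6542 in the digested sample and 3590 in the undigested sample, a log2 difference of 0.87, and its companion gave 0.81; in the values as deposited the first came to 1.01, just past 2-fold. Of the analysed probe sets, 53 lay at least as far up as the first and 61 as far as the companion. The brightest Glul probe set gave a log2 difference of 0.43 at day 7, M91652complete_seq_g_at 0.31 and rc_AA852004_s_at 1.17, a 2.25-fold higher signal. At least as far up lay 132, 165 and 39 of the 632 analysed probe sets, so a difference like that of the brightest was common. From lowest to highest these 3 Glul probe sets thus spread over a log2 of 0.86. The pooled SD between probe sets of a gene in this comparison was 0.52. A range of 3 values is usually wider than an SD, so the spread is not called unusual. The dim rc_AI012265_i_at was 2.55-fold lower in the digested sample.

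At day 1 most members differed little with digestion. Ckb had log2 differences of 0.19 and 0.24. The brightest Glul probe set gave 0.08, which turned to -0.07 after cyclic loess, M91652complete_seq_g_at gave -0.10, and rc_AA852004_s_at was 1.54-fold higher in the digested sample. At day 7, 1 of the 8 members that passed the filter reached 2-fold, rc_AA852004_s_at, where 11.4% of the analysed set did, and at day 1 none of the 8 did, where 3.48% of the analysed set did. The share at day 7 is thus near that of the analysed set. Over these 8 members the median log2 difference was 0.37 at day 7 and 0.13 at day 1, beside -0.05 and 0.12 over all analysed probe sets. Both Ckb probe sets and 2 of the 4 Glul probe sets read higher in digested samples at both days, 1 of these Glul probe sets being the one whose sign at day 1 turned.

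**Figure D2:**
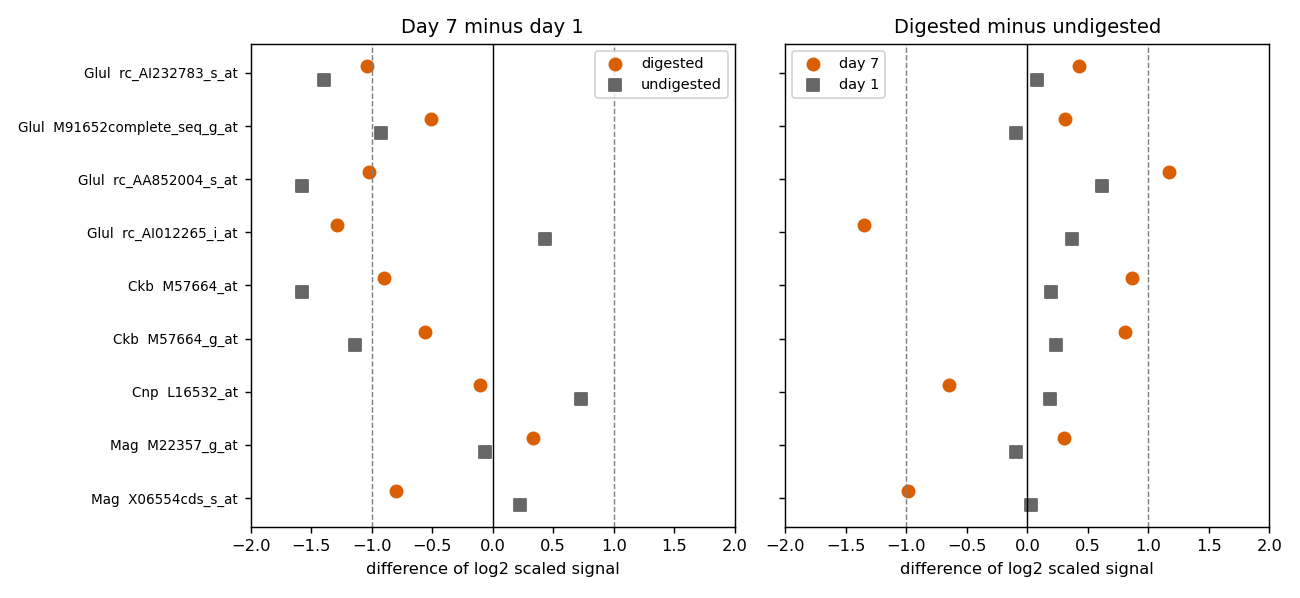
Differences of log2 scaled signal for the 9 member probe sets with no value at the floor, day 7 minus day 1 on the left (circles digested, squares undigested) and digested minus undigested on the right (circles day 7, squares day 1). Dashed lines mark 2-fold. Ckb and the 3 brighter Glul probe sets lie left of 0 in both day pairs, while the signs near 0 at day 1 on the right, 0.08 for rc_AI232783_s_at and 0.03 for X06554cds_s_at, turned under other scalings.

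Cnp was read by 1 probe set, L16532_at, with 1703 and 2668 in the digested and undigested day 7 samples, against 1832 and 1612 in the digested and undigested day 1 samples. The undigested day 7 sample stood above the other 3, which lay close together. Its array is the one with the beta-actin ratio of 2.66, and the part of RNA length in the Cnp values was not tested. Cnp was 1.65-fold higher at day 7 in undigested samples (log2 0.73) and near level in digested samples (log2 -0.11). Digested against undigested, it had a log2 difference of -0.65 at day 7 and 0.18 at day 1. In the undigested pair 109 of the 632 analysed probe sets lay at least as far up, so a difference of this size was common there.

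Mag was read by 3 probe sets. M22357_g_at had 669.5 and 541.8 in the digested and undigested day 7 samples, against 530.1 and 566.4 in the digested and undigested day 1 samples, all within a narrow range with the digested day 7 sample on top. X06554cds_s_at had 343.1 and 680.8 at day 7, digested and undigested, against 595.2 and 582.4 at day 1, digested and undigested, so here the digested day 7 sample was the low one. The digested day 7 array had the low hybridisation controls, whose part in this value was not tested. The 2 probe sets therefore disagreed in sign for digestion at day 7, with log2 differences of 0.31 and -0.99, and for the day in digested samples, with 0.34 and -0.79. In undigested samples the day differences were -0.06 and 0.23, the second turning to -0.01 in the values as deposited. At day 1 the digestion differences were -0.10 and 0.03, the second turning to -0.14 after quantile normalisation.

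The gap between the Mag probe sets was 1.29 for digestion at day 7, beside a pooled SD between probe sets of a gene of 0.52, an unlike measure. M22357_at, made from the same record as M22357_g_at, was under the floor on 3 arrays and read 99.22 on the undigested day 7 array, so no difference is given for it; against the floor, that value was at least 1.91-fold higher than on the undigested day 1 and the digested day 7 array. Neither Cnp nor the 2 brighter Mag probe sets separated the days (both day 7 arrays were above both day 1 arrays in 31.6% of the analysed set), and none of these 3 reached 2-fold in any of the 4 comparisons, although X06554cds_s_at came to 1.98-fold for digestion at day 7 and to 2.02-fold there after cyclic loess.

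**Figure D3:**
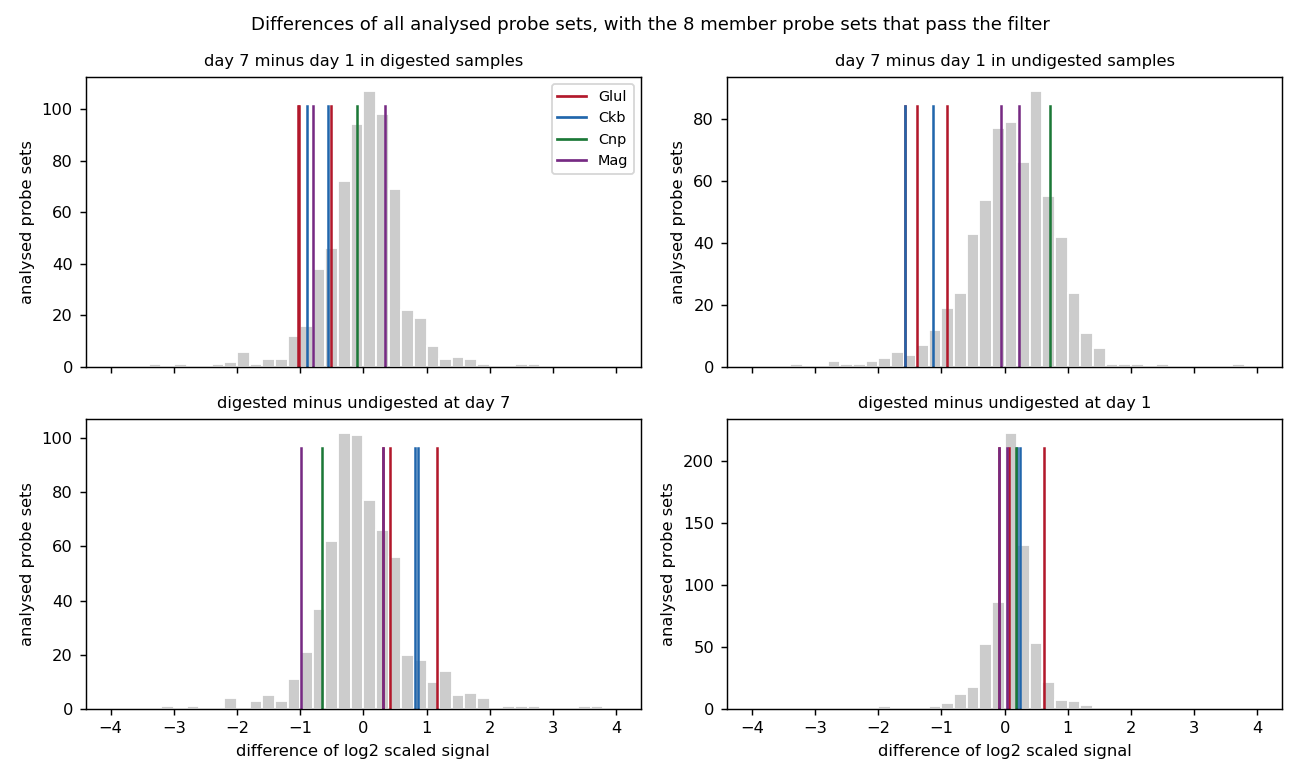
Histograms of the log2 differences of the 632 analysed probe sets in each comparison, with a vertical line for each of the 8 member probe sets that passed the filter, coloured by gene. In both day comparisons the Glul and Ckb lines stand in the left part of the histogram, and those of Cnp and Mag in its body or, for X06554cds_s_at in digested samples, at -0.79.

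Other genes known from the same pathways, taken from fixed lists, gave few parallels. Of 22 genes that handle glutamate, glutamine and GABA, 10 had a probe set and 4 passed the filter by their brightest one, and of these only Glul reached 2-fold, lower at day 7 in both pairs. Glud1, the glutamate dehydrogenase gene, read 8895 and 11000 in the digested and undigested day 7 samples, against 11030 and 9600 in the digested and undigested day 1 samples, with log2 differences between the days of -0.31 in digested and 0.20 in undigested samples, the second turning to -0.04 in the values as deposited. Slc1a3, the astrocyte glutamate transporter GLAST, had day differences of 0.23 and -0.11, and Slc6a11, a GABA transporter of glia, -0.67 and -0.27. The list's median over genes was -0.46 in digested and -0.19 in undigested samples, against 0.06 and 0.17 over all analysed genes, and it includes Glul. For digestion it was 0.13 at day 7 and 0.07 at day 1. The brightest probe set of Slc1a2, the main glutamate transporter of astrocytes, stayed under the filter at 117.7 to 182.3.

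Of 20 genes for creatine, glycolysis and glucose uptake, 4 had a probe set and all 4 passed the filter, with no creatine gene other than Ckb. Slc2a1, the glucose transporter GLUT1, read 2673 and 3401 at day 7, digested and undigested, against 2027 and 1486 at day 1, digested and undigested. It was thus the opposite of Ckb, 2.29-fold higher at day 7 in undigested samples, with a log2 difference of 0.40 in digested samples. Slc2a3, the neuronal glucose transporter GLUT3, read 9784 and 3158 at day 7, digested and undigested, against 7900 and 6314 at day 1, digested and undigested, and it shared with Ckb a low undigested day 7 sample, being 3.10-fold higher in the digested one. Eno2, the neuronal enolase, had day differences of -0.16 in digested and 0.64 in undigested samples. The list's median was 0.04 and -0.10 for the day in digested and undigested samples, and 0.25 and 0.27 for digestion at day 7 and day 1, Ckb included.

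Of 23 myelin and oligodendrocyte genes, 8 had a probe set and 3 passed the filter, Cnp, Mag and the axonal adhesion gene Cntn2. Cntn2 read 203.0 and 460.3 at day 7, digested and undigested, against 332.1 and 604.1 at day 1, digested and undigested, so it was lower in the digested sample at both days, 2.27-fold at day 7. It was the one gene of this list that passed the filter and 2-fold in any comparison. The list's median was -0.23 and 0.08 for the day in digested and undigested samples and -0.65 and -0.03 for digestion at day 7 and day 1. Mbp, the gene of myelin basic protein, read 129.7 and 213.8 at day 7, digested and undigested, against 32.36 and 147.0 at day 1, digested and undigested. Mog, a protein of the outer myelin surface, ran from 52.83 to 127.6 by its brighter probe set, and Sox10, the transcription factor of myelinating cells, from 26.77 to 83.78. Both stayed under the filter, and Sox10 was in part under the floor.

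The glial name of the gene group was set against further markers. The astrocyte genes S100b, Vim, Gja1 and Slc1a2 stayed under the filter on dim signal, as did Mbp, Mog and Sox10 above, while 5 other astrocyte genes passed it. S100b, a marker of astrocytes and Schwann cells, ran from 46.28 to 96.25 by its brightest probe set, in part under the floor. Vim, an intermediate filament gene of glia and connective tissue, was under the floor on all 4 arrays. Of 18 astrocyte genes 9 had a probe set and 5 passed the filter, Slc1a3, Slc6a11, Cspg5, Apoe and Nes, several of which other cells also make. Slc1a3 ran from 228.6 to 351.7 and Apoe, the apolipoprotein E gene, from 685.7 to 1027 by their brightest probe sets. The summed signal of the 9 was 2768 and 2214 in the digested and undigested day 7 samples, against 2830 and 2645 in the digested and undigested day 1 samples. Cspg5 read 510.5 and 96.82 at day 7, digested and undigested, against 599.2 and 247.6 at day 1, digested and undigested, and was past 2-fold higher in digested samples at both days and lower at day 7 in undigested samples. The list's median day difference was -0.04 in digested and -0.27 in undigested samples, and its digestion difference 0.50 at day 7 and -0.11 at day 1. The 4 genes are called by their names here.

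Markers of other cells moved as follows, and their part in the Glul and Ckb values was not tested. Of 15 chromaffin cell genes 6 had a probe set and 5 passed the filter, with a summed signal of 237390 and 352324 in the digested and undigested day 7 samples, against 288783 and 270997 in the digested and undigested day 1 samples. Their median day difference was 0.17 in digested and 1.06 in undigested samples, where Dbh, the enzyme gene for noradrenaline, read 4175 at day 7 against 1711 at day 1 and Penk, the enkephalin precursor gene, 2012 against 967.1. Npy, the neuropeptide Y gene, read 58.24, near the floor, in the digested day 7 sample against 577.0 in the digested day 1 sample. Most of the summed signal was Th and Ddc, enzyme genes of catecholamine synthesis. By their brightest probe sets the day differences in digested and undigested samples were -0.51 and 0.21 for Th and 0.42 and 0.95 for Ddc. For digestion the median of the chromaffin list was -0.65 at day 7 and 0.27 at day 1.

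Of 16 neuron genes 11 had a probe set and 9 passed the filter, with a summed signal of 171710 and 217003 at day 7, digested and undigested, against 248836 and 232202 at day 1, digested and undigested. Their median day difference was -0.46 in digested and 0.42 in undigested samples, with Gap43, an axon growth gene, past 2-fold lower in both pairs (151.7 and 101.8 at day 7, digested and undigested, against 434.7 and 407.0 at day 1, digested and undigested) and Nefm, a neurofilament gene, in digested samples alone (20850 at day 7, against 42920 at day 1). Much of the summed signal was Snap25 and Syp, genes of synaptic vesicles and their fusion. Snap25 had day differences of -0.74 in digested and -0.77 in undigested samples by its brightest probe set, and Syp -0.03 and 0.42. For digestion the median of the neuron list was -0.36 at day 7 and 0.13 at day 1. Of 20 Schwann and satellite cell genes 6 had a probe set and 4 passed the filter, with a summed signal of 39909 and 48373 at day 7, digested and undigested, against 38493 and 36798 at day 1, digested and undigested. Most of it was Ngfr, the low-affinity neurotrophin receptor gene, which neurons and chromaffin-derived cells can also express. The list's median day difference was 0.10 in digested and 0.29 in undigested samples, and the list's median digestion difference -0.22 at day 7 and -0.03 at day 1. Ncam1, a neural adhesion gene, was its 1 member past 2-fold, higher at day 7 in undigested samples (6710, against 2645 at day 1).

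Immune cell genes had 3 of 12 on the array and 0 past the filter, with summed signals of 411 and 353 at day 7, digested and undigested, against 67 and 183 at day 1, digested and undigested. These sums take signals before the floor of 51.8 is applied. In the digested day 1 sample Itgam, Tnf and Il1b, at 7.917, 45.24 and 13.96, were all under it, so no change between the days is read from the sums. Vessel and connective tissue genes had 2 of 13, of which Pdgfrb, a platelet-derived growth factor receptor gene, passed and read 167.4 in the digested day 7 sample against 348.5 in the digested day 1 sample. Of 11 adrenal cortex genes 0 had a probe set, so this list could not be read on these arrays.

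The genes whose course over the 4 arrays came closest to each member were sought among 557 named probe sets that passed the filter with no value at the floor, by the root mean square difference of log2 profiles centred on their mean. The 3 nearest to Glul were Hspb1, a small heat shock protein gene, at 0.13, Snap25, a gene of synaptic vesicle fusion, at 0.14 by 1 of its 4 probe sets, and Tubb5, a beta-tubulin gene, at 0.14. Nearest to Ckb were Jun, an immediate early transcription factor gene, at 0.14, Tubb5 at 0.19 and Hspb1 at 0.20 by another probe set. Jun read 1600 and 970.7 at day 7, digested and undigested, against 2534 and 2410 at day 1, digested and undigested. Tubb5 read 2311 and 1670 at day 7, digested and undigested, against 4443 and 3509 at day 1, digested and undigested.

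Cnp lay nearest to Mapt, the tau gene, at 0.027, the potassium channel gene Kcnn3 at 0.029 and the synapsin gene Syn1 at 0.047. All of these stood highest in the undigested day 7 sample, Mapt with 4931 and 7819 at day 7, digested and undigested, against 5102 and 4643 at day 1, digested and undigested. The brightest Mag probe set lay nearest to the synaptogyrin gene Syngr1 at 0.046, the calcium channel gene Cacna1b at 0.047 and the kinase gene Map2k2 at 0.049. With 4 arrays many profiles can lie this close, so the nearness is a description of these arrays only.

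**Figure D4:**
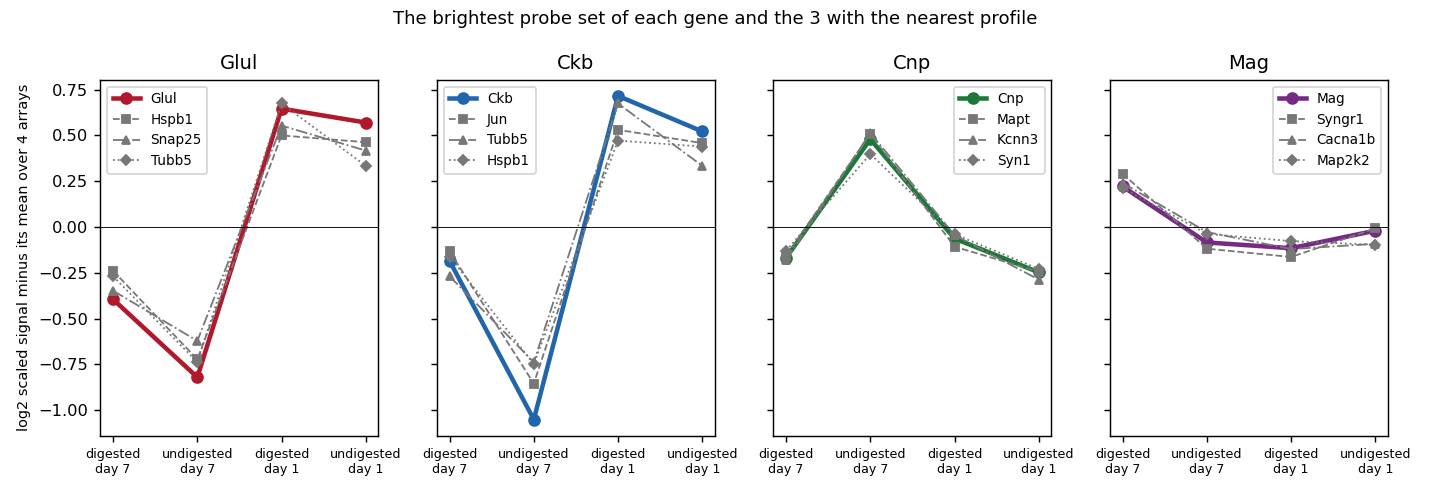
Log2 scaled signal minus its mean over the 4 arrays for the brightest probe set of each member gene (coloured) and the 3 probe sets of other genes with the nearest profile (grey). Glul and Ckb share the drop to the undigested day 7 array with Hspb1 and Tubb5, and Cnp its peak on that array with Mapt, Kcnn3 and Syn1.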

How the data were processed

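The deposited table gives, per its values, linear signal intensity for 1322 probe sets on 4 arrays, 59 of them controls; how the authors computed and scaled these intensities is unknown here. Members and gene lists were chosen with earlier results of these data known. Arrays were brought to the same median, controls aside (factors 0.984, 1.087, 1.011 and 0.925 for digested and undigested day 7 and digested and undigested day 1), floored at the 20th percentile and log2-transformed. The analysed set holds the probe sets whose mean log2 reached the median of all. With 1 array per group no test was made; differences of at least 2-fold were counted, leaving out, among members, any that rest on a floored value.

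Symbols were those of the probe table, and all 10 members matched a RefSeq gene by identifier. List genes were counted by their brightest probe set, list medians took the mean over a gene's analysed probe sets, and up to 4 genes per list past 2-fold were named, with closest partners. Alternatives were the values as deposited, quantile normalisation, cyclic loess (limma 3.58.1, R 4.3.3), an offset of 50, a 40th percentile floor, a 1.5-fold threshold and no filter. On simulated arrays with little noise, known shifts put into bright probe sets were recovered. Dim probe sets, the filter and values at the floor were not part of that check. Python 3.11.15 was used with numpy 2.4.6 and pandas 2.3.3.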

Additional observations from a re-analysis of the deposited data

Results flagged for a closer look

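For 5 member probe sets the difference between the days, or between digested and undigested, had opposite signs in the 2 pairs of arrays, each pair being 1 array against 1; the difference between the pairs was not tested. The log2 day difference in digested samples minus that in undigested samples was -1.72 for rc_AI012265_i_at of Glul, -1.02 for X06554cds_s_at of Mag, -0.83 for L16532_at of Cnp, 0.40 for M22357_g_at of Mag and 0.41 for M91652complete_seq_g_at of Glul, where only the digestion difference changed sign. In the negative ones the digested day 7 sample read low or the undigested day 7 sample high.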

How the results depend on the processing

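Under the other scalings and floors, 178 recomputed log2 differences of the member probe sets all stayed within the pooled SD between probe sets of a gene, and 0 differences past 2-fold changed sign. Part of this was fixed in advance, here and for the other genes below. Values as deposited move every difference of a pair, floored ones aside, by the same amount. With the 40th percentile floor, differences with a floored value were left out, so the others could not change. Of 36 differences, 3 changed sign, all under a log2 of 0.3 in size (Glul rc_AI232783_s_at for digestion at day 1, and Mag X06554cds_s_at for digestion at day 1 and for the day in undigested samples). With values as deposited, the median over all analysed probe sets itself moved by 0.04 and -0.23 for the day in digested and undigested samples. For digestion that median moved by 0.14 and -0.13 at day 7 and day 1. Over all 10 members, the count past 2-fold in digested samples between the days, 3, became 1 with an offset of 50 and 5 at a 1.5-fold threshold. The count for digestion at day 7, 2, became 1 with a floor at the 40th percentile and 6 at 1.5-fold, and that at day 1, 0, became 1 at 1.5-fold. Without the filter the probe sets past 2-fold numbered 242 and 284 for the day in digested and undigested samples and 273 and 208 for digestion at day 7 and day 1, against 51, 84, 72 and 22 with it. Of 533 recomputed differences of other named genes, added after the data were seen, 531 stayed within the same SD and 0 past 2-fold changed sign; the other 2, of Npy, came to log2 -2.53 for the day in digested samples and -1.98 for digestion at day 7 with the offset. Signs of the other genes near 0 can turn with the scaling. The files hold no detection calls, and with 1 array per group the spread between samples is unknown.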
